A study of Mus musculus with 4 samples.

Results

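The genes described here are 37 genes of cholesterol and fatty acid metabolism, chosen by symbol among the 23480 gene identifiers measured in each library. All 37 were matched by their Entrez identifiers, and all 37 passed the filter on low counts. They fall into 5 groups: 15 enzymes of sterol synthesis, 10 enzymes of fatty acid synthesis, elongation and desaturation, 3 acyl-CoA synthetases, 5 regulators of the SREBP transcription factors, and 4 genes of cholesterol transport and efflux. The samples were mouse T cells, 2 libraries labelled Th9 condition and 2 labelled Th9+TLA1 condition, and RNA was sequenced from each. Th9 conditions are culture conditions that drive helper T cells to make interleukin 9. TLA1 is read here as TL1A, the TNF-family cytokine named in the series title. Both groups shared the Th9 condition, and TLA1 was the labelled difference. No strain, age, dose or time is given in the labels, and nothing in them says that replicates came from separate animals or cultures. The p-values therefore speak to variation among these 4 libraries, part or all of which may be technical.

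Cholesterol is built from acetyl-CoA through mevalonate, farnesyl diphosphate, squalene and lanosterol, and long-chain fatty acids are built from the same acetyl-CoA through malonyl-CoA. Both routes are known to be switched on by the SREBP factors, which SCAP carries out of the endoplasmic reticulum when sterols are scarce and which INSIG proteins hold back when sterols are plentiful. Excess cholesterol leaves the cell through ABC transporters whose genes are targets of the sterol-sensing LXR receptors. T cells are known to raise lipid synthesis when they are activated and divide.

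RefSeq sequences before the transcription start (GRCm38.p6, the assembly of mm10) were at hand for 29 of the 37 genes. They were scanned on both strands, over 250 bases, for the letters of motifs tied in the literature to this pathway. Hmgcs1 and Insig1 are shown because they are an enzyme and a brake of the SREBP system, and Abca1 because it had the largest fold change of the 37. Capitals mark TCACCCCAC, the core of a sterol response element, and the CCAAT box, which reads ATTGG on the other strand, in Hmgcs1. In Insig1 they mark a CCAAT box and the E-box CACGTG, and in Abca1 a direct repeat of the LXR type, GGTNA and GGNCA with 5 bases of any kind between them.
Hmgcs1, chr13:119690101-119690350, plus strand: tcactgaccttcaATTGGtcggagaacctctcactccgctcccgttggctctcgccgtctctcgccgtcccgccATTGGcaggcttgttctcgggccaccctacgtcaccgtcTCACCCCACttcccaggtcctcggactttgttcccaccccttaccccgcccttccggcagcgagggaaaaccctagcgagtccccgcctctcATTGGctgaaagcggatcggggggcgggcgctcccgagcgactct
Insig1, chr5:28071162-28071362, plus strand: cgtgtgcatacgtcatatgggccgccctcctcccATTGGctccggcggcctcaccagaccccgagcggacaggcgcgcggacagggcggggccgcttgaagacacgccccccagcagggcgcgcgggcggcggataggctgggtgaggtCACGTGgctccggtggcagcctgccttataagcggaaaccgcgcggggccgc
Abca1, chr4:53159941-53159970, minus strand: acagcgttTGACCGGTAGTAACCccggcgc
In Hmgcs1 the sterol response element letters began 137 bases before the start, and 3 CCAAT boxes, all on the opposite strand, began 237, 176 and 45 bases before it. These 9 letters were found in 0.496% of all 32851 windows and in no other of the 29 genes. The CCAAT letters were found in all 12 sterol enzymes with a window, in 3 of 7 fatty acid enzymes, and in 33.9% of all windows (37.5% of genes). The E-box letters were found in 7 of the 29 genes and in 6.02% of all windows (6.86% of genes). A GC box, GGGCGG, was also scanned for and was found in 22 of the 29 genes and in 32.7% of all windows (35.4% of genes). The direct repeat was found in 4 of the 29 genes, namely Fasn, Acsl3, Srebf1 and Abca1, and in 0.907% of all windows. In Abca1 it began 67 bases before the RefSeq transcript start used for its window, which is not the outermost start of the gene, so that the printed stretch lies within the gene's full span. A match is a run of letters and was not tested as a binding site.

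Reads counted in genes came to between 2979482 and 4041633 per library, and 3 reads corresponded to 0.742 to 1.01 CPM (reads of a gene scaled to the same library total). All 6 T cell markers in the files were above 10 CPM in all 4 libraries (Cd3d, Cd3e, Cd3g, Cd4, Cd5 and Lck). The myeloid, NK, erythroid and mast cell marker sets each summed to at most 2.23 CPM in any library. The 2 CD8 T cell markers summed to 7.92 and 13.3 CPM in Th9 and to 9.73 and 10.1 CPM in Th9+TLA1. The 5 B cell markers summed to 12.1 and 14.8 CPM in Th9 and to 40.3 and 40.6 CPM in Th9+TLA1, with Ms4a1 at 0 throughout. The dendritic cell markers summed to 5.69 and 3.16 CPM and to 13.8 and 8.76 CPM. The part of these markers in any result was not tested. In bulk RNA, fewer cells of a type and less RNA per cell cannot be told apart.

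With TLA1, 1 of the 37 genes changed past the threshold of an adjusted p under 0.05 (limma, adjusted over all 10324 tested genes): Scd1, which encodes a stearoyl-CoA desaturase, fell 2.03-fold. Over all genes 118 passed, 1.14% of those tested (0.891% higher and 0.252% lower). At an unadjusted p under 0.05, 6 of the 37 genes were lower (Hmgcs1, Scd1, Acaca, Fads1, Fads2 and Acsl5) and 1 was higher (Abca1), 18.9% of the group beside 16.7% of all genes tested (8.14% lower and 8.54% higher). Of the 37, edgeR called Scd1 alone, beside 1.07% of all genes it tested, and DESeq2 called Scd1 and Abca1, beside 3.23% of the 8522 genes to which it gave an adjusted p. Fold changes were below 0 in 23 of the 37, or 62.2%, beside 51.1% of all genes. On levels rescaled by TMM factors, the 2 groups of libraries did not overlap in 17 of the 37, beside 47.4% of all genes, and 13 of the 17 were lower with TLA1 and 4 higher. The median log2 fold change was -0.05 over the 37 genes and -0.01 over all genes. Without regard to direction, the shares at an unadjusted p under 0.05 and without overlap lay near those of all genes. By direction they did not: in both counts more of the 37 were lower than higher, where all genes were split about evenly. Much of this came from the 10 fatty acid enzymes. They gave 4 of the 6 genes lower at an unadjusted p under 0.05 and 7 of the 13 lower without overlap. The 37 genes were chosen with earlier results of these data known, so the split was not tested.

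**Figure D1:**
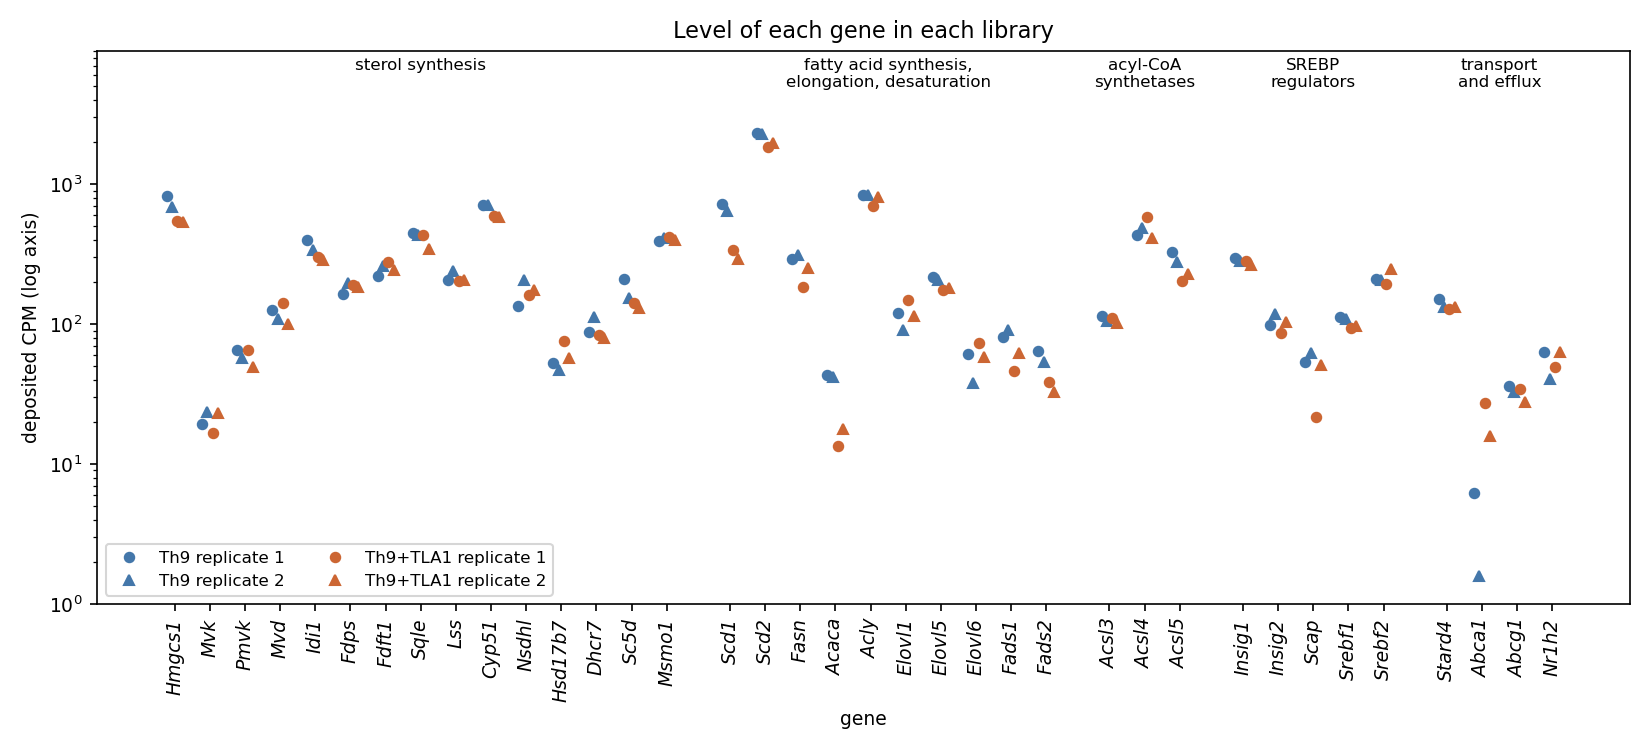
Level of each of the 37 genes (deposited CPM, log axis) in the 4 libraries, with Th9 in blue, Th9+TLA1 in orange, replicate 1 as circles and replicate 2 as triangles. Scd1 and Acaca have both orange points well below both blue points, Abca1 has both above, and most sterol enzymes have the colours intermixed.

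The enzymes of sterol synthesis were for the most part at similar levels in both conditions. None of the 15 passed in limma, edgeR or DESeq2 (1 at an unadjusted limma p under 0.05, Hmgcs1), and all 15 had a fitted log2 fold change between -0.5 and 0.5, with a median of -0.02. For 14 of the 15 the 95% interval lay inside a 2-fold change in either direction, the exception being Hsd17b7. Of all 10324 genes tested, 6920 had a log2 fold change between -0.5 and 0.5, and 4560 had an interval inside a 2-fold change. The groups did not overlap in 5 of the 15, 4 of them lower and 1 higher, or 33.3% beside 47.4% of all genes.

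Hmgcs1, the cytosolic synthase that makes HMG-CoA at the entry to the mevalonate pathway, had 829 and 691 CPM in Th9 and 542 and 536 CPM in Th9+TLA1. Both Th9+TLA1 libraries were below both Th9 libraries. Its log2 fold change of -0.40 (95% interval -0.77 to -0.03) had an unadjusted p of 0.0368 and did not pass over all genes (limma adjusted p = 0.266). Of its exon bases 16.0% are shared with an antisense gene, and the kit does not mark strand. Mvk and Pmvk, the kinases that act on mevalonate next, were low per length, with means of 10.3 and 34.6 CPM per kb of exon over the 4 libraries. Mvk ranged from 16.8 to 23.4 CPM and Pmvk from 49.0 to 65.8 CPM, with the groups overlapping in both. Mvd, the decarboxylase that closes this part of the pathway, had 127 and 109 CPM in Th9 and 142 and 101 CPM in Th9+TLA1, so that the Th9+TLA1 libraries held both its highest and its lowest value.

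The isoprenoid steps gave both directions. Idi1, the isomerase of the isoprenoid building block, had 398 and 339 CPM in Th9 and 302 and 287 CPM in Th9+TLA1, and the groups did not overlap, with a log2 fold change of -0.23 (-0.60 to 0.15). Fdps, which makes farnesyl diphosphate, had 165 and 195 CPM and then 190 and 185 CPM. Fdft1, which joins farnesyl diphosphate into squalene, had 220.0 and 259 CPM and then 280 and 242 CPM. Both overlapped between the groups, and both share exon bases with another gene (Fdps 77.4% of its exon bases with a predicted gene, Fdft1 20.9% with Ctsb), so that how such reads were counted bears on their levels.

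Sqle, the epoxidase that acts on squalene, had 449 and 433 CPM in Th9 and 436 and 342 CPM in Th9+TLA1. Lss, which closes the ring to lanosterol, ranged from 203 to 239 CPM. Neither separated the groups. Cyp51, the lanosterol demethylase, had 716 and 715 CPM in Th9 and 597 and 586 CPM in Th9+TLA1. Its replicates lay close together and its groups did not overlap, but its log2 fold change of -0.18 (-0.54 to 0.18) did not pass (limma adjusted p = 0.637). Msmo1, the sterol C4-methyl oxidase, had 391 and 414 CPM and then 416 and 400.2 CPM, with the groups overlapping.

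Nsdhl, a sterol dehydrogenase of the same demethylation complex, had 135 and 205 CPM in Th9 and 163 and 176 CPM in Th9+TLA1, a wider gap between the Th9 replicates than between the conditions. Hsd17b7, the ketoreductase of that complex, had 52.7 and 47.0 CPM in Th9 and 75.5 and 56.8 CPM in Th9+TLA1. It was the 1 sterol enzyme with both Th9+TLA1 libraries above both Th9 libraries, at a log2 fold change of 0.48 (-0.09 to 1.05, limma adjusted p = 0.388). Sc5d, a late desaturase, had 209 and 153 CPM and then 143 and 131 CPM, and Dhcr7, which carries out the last reduction to cholesterol, had 87.3 and 113 CPM and then 83.6 and 79.2 CPM. Both Th9+TLA1 values of Sc5d were below both Th9 values, at a log2 fold change of -0.29. The same held for Dhcr7 on the deposited CPM, but after rescaling by the TMM factors its groups overlapped, at -0.19.

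Per length of exon, Msmo1, Hmgcs1 and Cyp51 were the highest of the sterol enzymes, at means of 198, 187 and 166 CPM per kb over the 4 libraries, and Mvk and Hsd17b7 the lowest, at 10.3 and 11.5 CPM per kb. By the mean of each condition, the order of Msmo1 and Hmgcs1 was not the same. Within Th9 the replicates did not share an order, and only Th9 replicate 1 had Hmgcs1 above Msmo1. Hmgcs1 was at 218 and Msmo1 at 197 CPM per kb in Th9, and they were at 155 and 200 CPM per kb in Th9+TLA1.

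**Figure D2:**
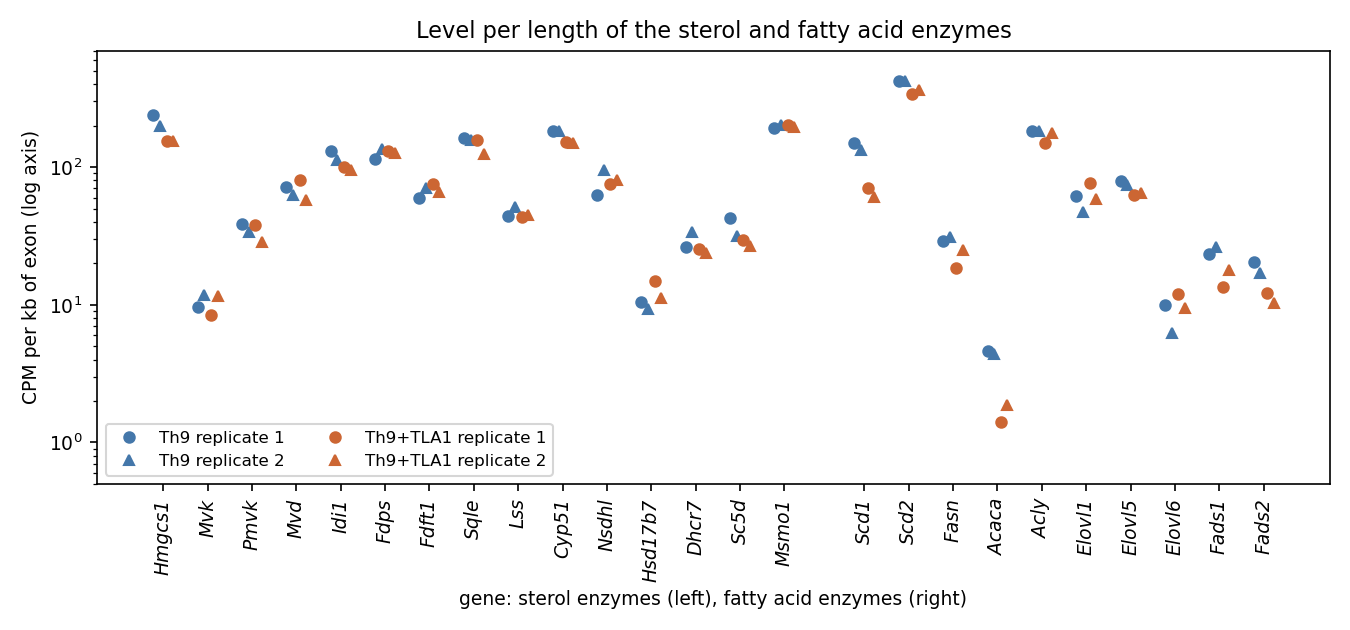
Level per kb of exon (log axis) of the 15 sterol enzymes on the left and the 10 fatty acid enzymes on the right, in each of the 4 libraries (colours and symbols for condition and replicate). Scd2 is the highest of these enzymes in all 4 libraries, Acaca the lowest, and the values of Scd1 and Acaca are lower in both Th9+TLA1 libraries than in both Th9 libraries.

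The enzymes of fatty acid synthesis, elongation and desaturation were lower with TLA1 in 8 of 10 cases, with a median log2 fold change of -0.28. Scd1 passed the test. Scd1, Acaca, Fads1 and Fads2, or 40.0% of this group, had an unadjusted p under 0.05, all lower, beside 8.14% of all genes that were lower at that level. The groups of libraries did not overlap in 9 of 10, of which 7 were lower (Scd1, Scd2, Fasn, Acaca, Elovl5, Fads1 and Fads2) and 2 higher (Elovl1 and Elovl6), beside 23.7% of all genes in each direction. On the deposited CPM, without rescaling, Acly was also lower in both Th9+TLA1 libraries, and Elovl1 and Elovl6 overlapped.

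Scd1 (chr19:44394450-44407709), which puts the double bond into saturated fatty acids, had 726 and 640.3 CPM in Th9 and 339 and 292 CPM in Th9+TLA1 (683 ± 60.6 and 316 ± 33.2, SD, n = 2 libraries per group). Each Th9+TLA1 library lay well under each Th9 library. The difference on the log2 scale was -1.02 with an SE of 0.17 and a 95% interval of -1.40 to -0.64 (limma adjusted p = 0.0177). Over the alternatives the adjusted p ran from 1.04e-05 to 0.142. It was above the threshold when Th9 replicate 2 (0.104) or Th9+TLA1 replicate 2 (0.142) was left out and when low genes were kept in the fit (0.0595), while the log2 fold change stayed between -1.13 and -0.91 when any 1 library was left out. Scd2 (chr19:44293676-44306864), in the same gene cluster and a close relative in sequence, had 2318 and 2290.0 CPM in Th9 and 1849 and 1986 CPM in Th9+TLA1. Its log2 fold change was -0.17 (-0.57 to 0.22) and did not pass (limma adjusted p = 0.689). The ratio of Scd1 to Scd2 within a library was 0.313 and 0.280 in Th9 and 0.183 and 0.147 in Th9+TLA1. The other genes of the family were scarce, with Scd3 at 4.03 to 9.40 CPM and Scd4 at 6.04 to 10.4 CPM. The sources do not say how reads shared by these near copies were counted, and their split is uncertain to that extent.

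Acaca (chr11:84129635-84401651), the acetyl-CoA carboxylase that makes malonyl-CoA and sets the pace of fatty acid synthesis, had 43.5 and 42.0 CPM in Th9 (176 and 133 reads) and 13.4 and 17.9 CPM in Th9+TLA1 (40 and 55 reads). The Th9 replicates were nearly equal and both Th9+TLA1 values were well below them. Its fold change was larger than that of Scd1, a log2 value of -1.32 ± 0.35 (SE, 95% interval -2.08 to -0.56), but its unadjusted p of 0.00264 did not pass over all genes (limma adjusted p = 0.105). Leaving out any 1 library kept it between -1.51 and -1.13, with no call. Fasn, the fatty acid synthase that uses malonyl-CoA, had 293 and 310.1 CPM in Th9 and 185 and 253 CPM in Th9+TLA1, a log2 fold change of -0.39 (-0.82 to 0.04). Acly, which cuts citrate into acetyl-CoA for both routes, had 844 and 844 CPM in Th9 and 693 and 810 CPM in Th9+TLA1, a log2 fold change of -0.08 (-0.46 to 0.30). The ratio of Acaca to Fasn was 0.149 and 0.135 in Th9 and 0.0727 and 0.0707 in Th9+TLA1.

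Fads1 and Fads2, the desaturases of polyunsaturated fatty acids, lie in 1 cluster on chromosome 19. Fads1 had 81.2 and 90.6 CPM in Th9 and 46.3 and 62.0 CPM in Th9+TLA1. Fads2 had 64.6 and 53.7 CPM and then 38.6 and 32.5 CPM. Both were lower in each Th9+TLA1 library than in each Th9 library, and their log2 fold changes of -0.58 (-1.12 to -0.03) and -0.63 (-1.23 to -0.03) were alike in size. Their unadjusted p-values of 0.0402 and 0.0423 did not pass over all genes (limma adjusted p = 0.275 and 0.278).

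The elongases did not share a direction. Elovl5, which lengthens polyunsaturated fatty acids, had 219 and 206 CPM in Th9 and 176 and 181 CPM in Th9+TLA1, a log2 fold change of -0.16 (-0.55 to 0.23). Elovl1, which makes very long saturated chains, ranged from 91.2 to 148 CPM. Elovl6, which turns palmitate into stearate, had 61.1 and 38.2 CPM and then 73.5 and 58.4 CPM. The fitted log2 fold changes of Elovl1 and Elovl6 were 0.41 (-0.08 to 0.89) and 0.52 (-0.10 to 1.14), and neither passed (limma adjusted p = 0.392 and 0.387).

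The acyl-CoA synthetases, which activate free fatty acids with coenzyme A, had a median log2 fold change of 0.04 (-0.05 with total count scaling), and none of the 3 passed in limma, edgeR or DESeq2 (1 at an unadjusted limma p under 0.05). Acsl4, which prefers arachidonate, had 433 and 484 CPM in Th9 and 588 and 410 CPM in Th9+TLA1, so that the highest and lowest values both came from Th9+TLA1. Acsl3 had 114 and 105 CPM and then 110.1 and 101 CPM, with the groups overlapping. Acsl5 had 327 and 278 CPM in Th9 and 202 and 228 CPM in Th9+TLA1. It did not overlap between the groups, at a log2 fold change of -0.39 (-0.78 to -0.01), and did not pass over all genes (unadjusted p = 0.0475, limma adjusted p = 0.294).

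None of the 5 SREBP regulators passed in limma, edgeR or DESeq2 (0 at an unadjusted limma p under 0.05), and the median of their log2 fold changes was -0.09 (0.030 without Th9 replicate 2). Srebf1, whose product favours fatty acid genes, had 113 and 108 CPM in Th9 and 93.3 and 96.4 CPM in Th9+TLA1. Srebf2, whose product favours sterol genes, had 211 and 208 CPM and then 195 and 248 CPM. Their log2 fold changes were -0.13 (-0.57 to 0.32) and 0.16 (-0.25 to 0.57), and a test of Srebf1 against Srebf2 was not made. The ratio of Srebf1 to Srebf2 was 0.534 and 0.520 in Th9 and 0.478 and 0.389 in Th9+TLA1.

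Insig1, at once a brake on SREBP and one of its best known targets, had 296 and 283 CPM in Th9 and 283 and 263 CPM in Th9+TLA1. Its log2 fold change of 0.01 (-0.37 to 0.39) was among the smallest of the 37 genes, and its sign was negative with total count scaling (-0.08). Insig2, the other INSIG gene, had 98.2 and 119 CPM and then 86.6 and 104 CPM, with the groups overlapping. Scap, which encodes the SREBP escort, had 53.2 and 61.9 CPM in Th9 and 21.8 and 50.6 CPM in Th9+TLA1. The groups overlapped once rescaled by the TMM factors. The low value of Th9+TLA1 replicate 1 decided its log2 fold change, which was -0.68 (-1.48 to 0.13) with all libraries, -0.09 without that library and -1.26 without Th9+TLA1 replicate 2. Of the exon bases of Scap 18.6% are shared with another transcript.

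None of the 4 genes of transport and efflux passed in limma or edgeR (1 at an unadjusted limma p under 0.05), and Abca1 passed in DESeq2. Their median log2 fold change was 0.11 (-0.038 without Th9 replicate 2). Abca1 (chr4:53030789-53159988), which exports cholesterol to lipid-poor apolipoprotein, was at low levels in all 4 libraries. It had 6.19 and 1.58 CPM in Th9 (25 and 5 reads) and 27.5 and 15.9 CPM in Th9+TLA1 (82 and 49 reads). Both Th9+TLA1 values were above both Th9 values, and the replicates of each condition differed widely. The fitted difference was 5.40-fold, or 2.43 ± 0.61 on the log2 scale (SE, 95% interval 1.11 to 3.76), with an unadjusted p of 0.00182 that did not pass over all genes (limma adjusted p = 0.0878). Over the alternatives its adjusted p ran from 0.0197 (DESeq2) to 0.321, it also passed with the replicate number as a block (0.0240), and its log2 fold change lay between 1.74 and 3.12 when any 1 library was left out, the lower value coming with Th9 replicate 2 removed and the higher with Th9 replicate 1 removed.

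Abcg1, the partner transporter that loads cholesterol onto lipoprotein particles and is likewise an LXR target, had 35.9 and 32.5 CPM in Th9 and 34.6 and 27.6 CPM in Th9+TLA1. Its log2 fold change was -0.05 (-0.74 to 0.64), and the groups overlapped. The ratio of Abca1 to Abcg1 was 0.172 and 0.0485 in Th9 and 0.796 and 0.576 in Th9+TLA1. Nr1h2, which encodes the LXR-beta receptor, had 62.8 and 40.7 CPM and then 49.7 and 63.0 CPM. Stard4, a carrier of cholesterol between membranes, had 151 and 132 CPM and then 129 and 133 CPM, with the groups overlapping and a log2 fold change of -0.02 (-0.44 to 0.40).

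**Figure D3:**
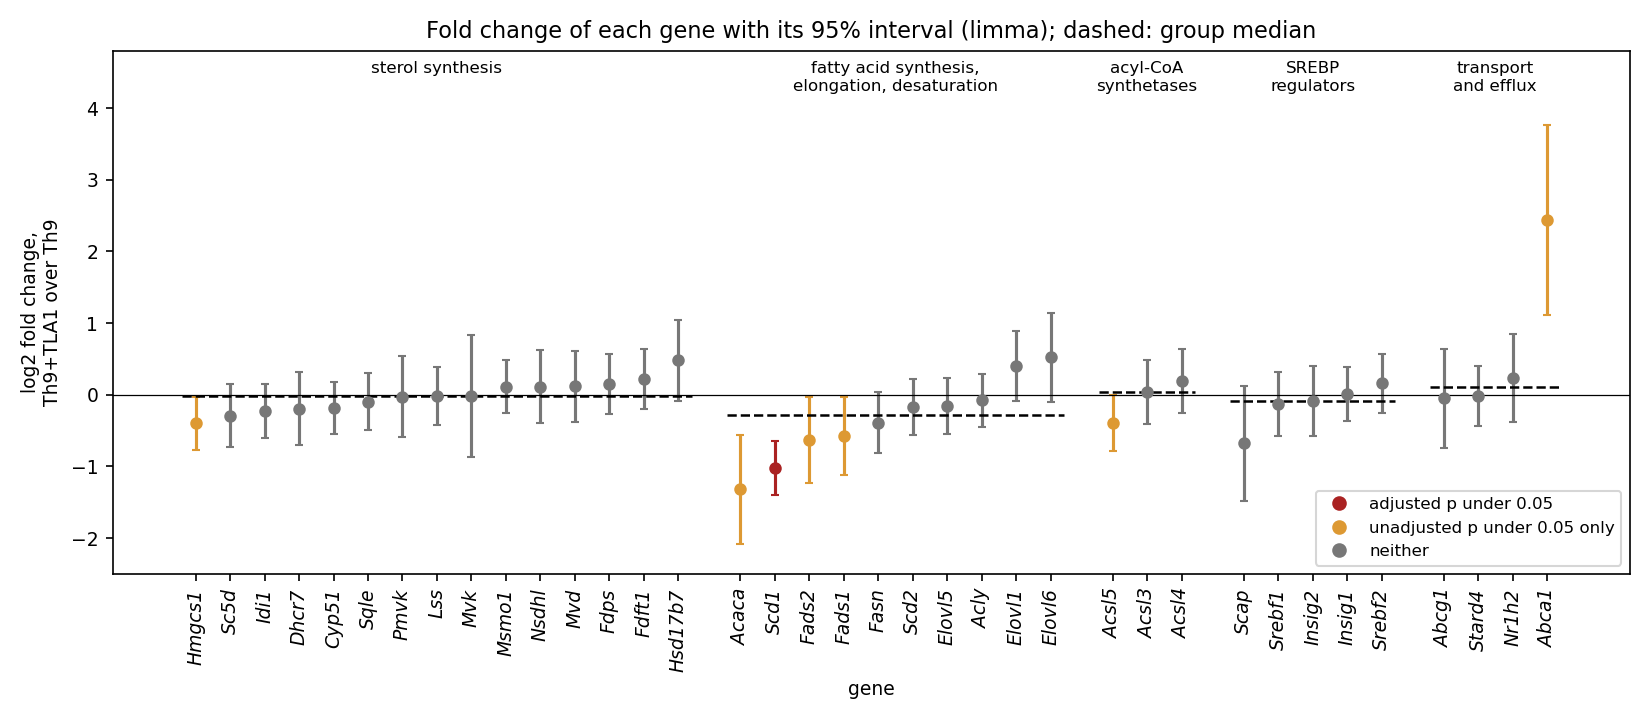
Log2 fold change of each gene (Th9+TLA1 over Th9, limma on log2(CPM + 1), bars for the 95% interval), ordered within the 5 groups, with dashed lines at the group medians. Scd1 is in red as the gene past the adjusted threshold, and 6 further genes in orange had an unadjusted p under 0.05. The sterol enzymes straddle 0, while 8 of the 10 fatty acid enzymes are below it.

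Set side by side, the median log2 fold change was -0.02 for the sterol enzymes, -0.28 for the fatty acid enzymes, 0.04 for the acyl-CoA synthetases, -0.09 for the SREBP regulators and 0.11 for transport and efflux, with -0.01 over all genes tested. Summed over its members, sterol synthesis took 4070.1 and 3993 CPM in Th9 and 3657 and 3402 CPM in Th9+TLA1, and fatty acid synthesis, elongation and desaturation took 4771 and 4607 CPM and then 3563 and 3807 CPM. The mean sums in Th9+TLA1 were 0.875 and 0.786 times those in Th9. These sums are of deposited CPM, not rescaled by the TMM factors. Without that rescaling the median log2 fold change of all genes was -0.10, so part of both ratios comes with the scale. Scd2 made up the largest part of the fatty acid sum in all 4 libraries. As means of the log2 levels, the sterol enzymes minus the fatty acid enzymes gave -0.21 and -0.04 in Th9 and 0.28 and 0.12 in Th9+TLA1. The libraries of the 2 conditions did not overlap in this difference. The same value against the SREBP regulators was 0.47 and 0.43 in Th9 and 0.81 and 0.35 in Th9+TLA1, with the conditions overlapping. No test was made of these differences, since the genes were chosen with results known.

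**Figure D4:**
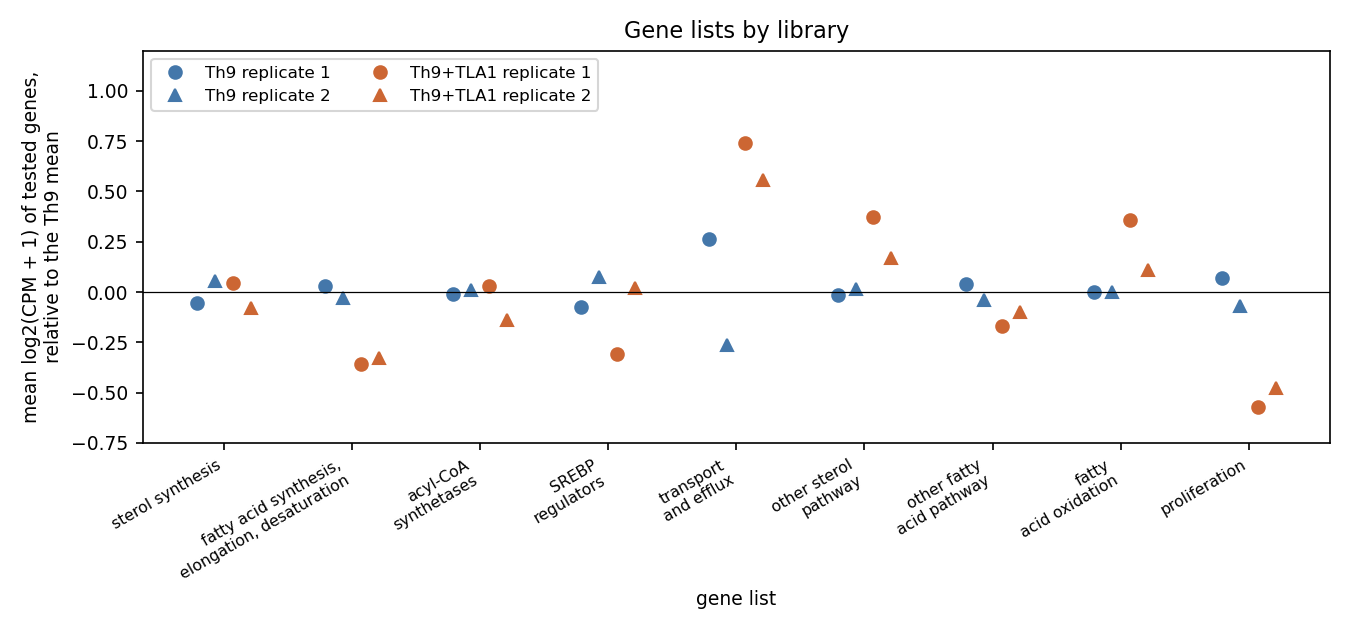
Mean log2(CPM + 1) of the tested genes of each list in each library, relative to the mean of the 2 Th9 libraries. The fatty acid enzymes, the proliferation genes and the other fatty acid pathway genes lie below 0 in both Th9+TLA1 libraries. The last of these means includes Acsl6, which had 0 reads in those libraries. The sterol enzymes have the conditions intermixed. Transport and efflux, which includes Abca1, the other sterol pathway genes and fatty acid oxidation lie above 0 in both Th9+TLA1 libraries.

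Other genes of the same pathways were read from lists of related genes. Of 20 other sterol pathway genes 16 were tested, and 1 passed: Npc2, which hands cholesterol out of the lysosome. It rose from 445 and 557 CPM to 1356 and 918 CPM, which is 1.25 ± 0.22 on the log2 scale (SE, limma adjusted p = 0.0206, 4.13e-06 to 0.116 over the alternatives). The adjusted p was 0.0572 with Th9 replicate 1 removed, 0.116 with Th9 replicate 2 removed, 0.0638 with Th9+TLA1 replicate 1 removed and 0.0818 with low genes kept. The 16 had a median of 0.20, and 11 were above 0. Below 0 were 31.25% of them, beside 51.1% of all genes. Of 23 other fatty acid genes 16 were tested. These had a median of 0.14, and 9 were above 0. Of the 16, 43.75% were below 0, beside 51.1% of all genes. The mean of their log2 levels, with Acsl6 included, was lower in both Th9+TLA1 libraries than in both Th9 libraries. The median and the mean of these genes thus differed in direction. None passed in limma (1 at an unadjusted p under 0.05). That 1 gene, the acyl-CoA synthetase Acsl6, had 30 and 34 reads in Th9 and 0 in both Th9+TLA1 libraries. Taking 3 reads in each Th9+TLA1 library as the floor, it was at least 9.17-fold lower (limma adjusted p = 0.0722, 0.0459 to 0.422 over the alternatives). It passed in edgeR (0.0489) and with the replicate block (0.0459), and DESeq2 gave it no adjusted p. By CPM, which is not per length, the most abundant of the 16 was Hacd3, an elongation cycle dehydratase, at 208 and 173 CPM and then 171 and 169 CPM.

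Of 9 genes of SREBP processing none passed in limma, edgeR or DESeq2 (1 at an unadjusted limma p under 0.05). That gene was Fbxw7, which encodes a ubiquitin ligase subunit known to turn over nuclear SREBP. It had 45.0 and 37.3 CPM in Th9 and 65.8 and 68.2 CPM in Th9+TLA1 (log2 fold change 0.79, limma adjusted p = 0.162). Of 13 genes of fatty acid oxidation 11 were tested and none passed in limma, edgeR or DESeq2 (2 at an unadjusted limma p under 0.05, Cpt1a and Acadl). Both of these were higher, or 18.2% of the 11, beside 8.54% of all genes that were higher at that level. The 11 had a median of 0.24, and 9 were above 0. Below 0 were 18.2% of them, beside 51.1% of all genes. Cpt1a, which brings fatty acids into mitochondria, had 58.4 and 37.6 CPM and then 62.4 and 78.5 CPM, and Acadl, a dehydrogenase of the same route, 139 and 113 CPM and then 208 and 155 CPM. Acadvl, the most abundant by CPM, had 267 and 258 CPM and then 323 and 233 CPM.

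Genes of proliferation had lower values beside the fatty acid enzymes. Of the 12, 1 passed in limma, 0 in edgeR and 3 in DESeq2 (Mki67, Mcm2 and Rrm2). The share of all genes passing in DESeq2 was 3.23%. At an unadjusted limma p under 0.05 there were 7, all lower, beside 8.14% of all genes that were lower at that level. All 12 had a log2 fold change below 0, with a median of -0.42. In 11 the groups did not overlap, all lower, beside 23.7% of all genes. Mki67 passed in limma, falling from 721 and 389 CPM to 197 and 249.9 CPM (limma adjusted p = 0.0464, 0.00029 to 0.216 over the alternatives). Its adjusted p was 0.216 with Th9 replicate 1 removed, 0.0803 with Th9 replicate 2 removed, 0.0670 with Th9+TLA1 replicate 2 removed, 0.129 with low genes kept, 0.0696 with total count scaling, 0.0613 with a pseudocount of 0.25 CPM and 0.0516 in edgeR. Mcm2, a part of the replicative helicase, had 317 and 284 CPM and then 164 and 174 CPM, and Rrm2, a ribonucleotide reductase subunit, 426 and 451 CPM and then 255 and 247 CPM. The list summed to 4826 and 4183 CPM in Th9 and to 2762 and 3077 CPM in Th9+TLA1. Top2a, its most abundant member by CPM, had 1175 and 1062 CPM and then 733 and 847 CPM. The part of these genes in the lower fatty acid values was not tested.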

How the data were processed

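RNA of 4 libraries of mouse T cells (Th9, n = 2; Th9+TLA1, n = 2) was amplified as cDNA (SMARTer Ultra Low Input, a kit that does not mark strand) and sequenced on an Ion Torrent instrument, per the labels' protocols. HTSeq 0.5.4, edgeR and mm10 are named in the submitters' processing notes, and neither aligner nor annotation is stated there. The authors deposited CPM, which have the same sum in each library. In each library 100% of non-zero values were whole multiples of 1 read within 0.01 of a read, and reads were recovered from them. Amplified low-input reads are not independent molecules, so floors and intervals cover counting and library spread only.

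RefSeq (GRCm38.p6) matched 23383 of the 23480 identifiers. Genes were kept with filterByExpr (minimum count 10), CPM were divided by TMM factors (0.964 to 1.06), and log2(CPM + 1) was fitted with limma (eBayes with a mean trend) on the condition. Fold changes are on that scale and understate the change of low genes. A gene passed where its Benjamini-Hochberg adjusted p, over every gene in the fit, was under 0.05. The edgeR quasi-likelihood test on recovered reads called 110 genes. Exonic length came from GENCODE M21. The variance between replicates was 12.2 (Th9) and 7.54 (Th9+TLA1) times that of sampling noise (chi-square per degree of freedom). Members and lists were chosen with earlier results of these data known. Per-library values are given for members that passed, for those with an unadjusted p under 0.05, and for the most abundant per length of each group; others were added after their values were seen. Of other lists the genes named are those that passed or had the largest changes at an unadjusted p under 0.05, the most abundant by CPM, and Scd3 and Scd4, added after their values were seen. Some genes of these lists are not reported here. Alternatives were RLE and total count scaling, no or a stricter filter (minimum count 30), a pseudocount of 0.25 CPM, edgeR, DESeq2, the replicate number as a block, and leaving out each library. The tests were checked on simulated data. Python 3.11.15 (numpy 2.4.6, pandas 2.3.3, matplotlib 3.10.9) and R 4.3.3 (DESeq2 1.42.0, edgeR 4.0.16, limma 3.58.1) were used.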

Additional observations from a re-analysis of the deposited data

How the results depend on the processing

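Counts of genes that passed, 118 in all (92 higher, 26 lower), were 73 (52 higher) with total count scaling, 33 (25 higher, 8 lower) without a filter, 275 (185 and 90) with DESeq2 and 225 (147 and 78) with the replicate block. They ran from 19 to 155 (19 to 87 higher, 0 to 68 lower) when 1 library was left out. Of the 37 genes, 1 passed, with 0 without a filter, 2 (Scd1 and Abca1) with DESeq2 and with the replicate block, and 0 to 1 with 1 library left out. The sample labels give the replicate numbers no shared source. The replicate 2 libraries of both conditions carry 1 code in the names of their deposited data that the replicate 1 libraries do not, and what it marks is not stated. Across all 4 libraries, the deviations of same-numbered libraries had a correlation of -0.01 across genes. With total count scaling, which moved the median of all genes from -0.01 to -0.10, the group medians were -0.11 for sterol enzymes, -0.37 for fatty acid enzymes, -0.052 for acyl-CoA synthetases, -0.18 for SREBP regulators and 0.017 for transport and efflux, and Acsl3 (-0.052) and Insig1 (-0.083) changed sign. With 1 library left out the medians ran over -0.14 to 0.067 for sterol enzymes, -0.36 to -0.16 for fatty acid enzymes, -0.076 to 0.11 for acyl-CoA synthetases, -0.15 to 0.030 for SREBP regulators and -0.038 to 0.26 for transport and efflux. With 1 library left out, 17 genes, none past the threshold, changed sign, with log2 fold changes from lowest to highest of Abcg1 -0.22 to 0.11, Acly -0.18 to 0.025, Acsl3 -0.028 to 0.11, Acsl4 -0.076 to 0.46, Dhcr7 -0.42 to 0.044, Fdps -0.016 to 0.33, Insig1 -0.052 to 0.069, Insig2 -0.27 to 0.098, Lss -0.17 to 0.14, Mvd -0.14 to 0.37, Mvk -0.23 to 0.19, Nr1h2 -0.021 to 0.49, Nsdhl -0.23 to 0.47, Pmvk -0.24 to 0.18, Sqle -0.28 to 0.084, Srebf2 -0.0040 to 0.33 and Stard4 -0.056 to 0.031. Of 296 values of the 37 genes under the other 8 alternatives, 291 kept their sign and their side of the threshold. The cause of these changes was not tested. A lone library of a condition is assumed to vary like those of the other. Depth limits Abca1, which had 5 reads in Th9 replicate 2.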
